A study of Mus musculus with 8 samples.

Results

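The comparison set CD4-CD8- cells sorted from the spleen, which the labels call thymus emigrants, against CD4-CD8- thymocytes, with both sources taken from mice given the dioxin TCDD (2,3,7,8-tetrachlorodibenzo-p-dioxin). The arrays compared were the 2 titled as emigrants with TCDD and the 2 titled as thymocytes with TCDD, 4 of the 8 arrays of the series, with no selection of genes by their values. On these arrays 20393 of 22690 probe sets carried a single gene symbol, and they represented 12394 genes. The mice were female C57BL/6 of 6 to 8 weeks. TCDD was injected intraperitoneally at 10 µg/kg in corn oil, thymocytes were labelled in vivo with the dye FITC 5 days later, and the cells were sorted after another 24 h. The other 4 arrays, 2 of emigrants and 2 of thymocytes from mice given corn oil alone, entered the estimate of the spread and gave the same source comparison without TCDD. The study asks what activation of the aryl hydrocarbon receptor (AhR) does to the thymocytes that leave the thymus. The comparison here asks how the cells found in the spleen differed from those in the thymus when both had met TCDD.

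The labels leave several limits. They do not say whether the sort also required FITC, how many mice or cells went into an array, or whether both arrays of a group stem from different animals, so the p-values given here speak for the spread among these arrays alone, and that spread may be technical. The RNA was amplified before hybridisation, per the labels' protocols. The field for treatment gives TCDD as 10 nM, which is not the injected dose, and for the array titled emigrants oil 1 it names TCDD as well. That of emigrants oil 2 reads Dioxane 2. The free-text description of both thymocyte TCDD arrays mentions corn oil only, while their titles and treatment fields name TCDD. The tissue field of emigrants TCDD 1 reads Thymus. Groups were taken from the titles.

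CD4-CD8- thymocytes are the earliest T cell precursors of the thymus. They receive Notch signals from the stroma, cut and rejoin the T cell receptor beta gene with the RAG proteins, and pair the new beta chain with the invariant pre-T alpha chain, after which they divide and move on to the CD4+CD8+ stage. T cells normally leave the thymus much later, guided by the sphingosine-1-phosphate receptor S1pr1 under control of the transcription factor Klf2. AhR is a ligand-activated transcription factor, and TCDD, which binds it, is known for shrinking the thymus.

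Values are deposited RMA values on the log2 scale, and a log2 difference is the emigrant mean minus the thymocyte mean (n = 2 arrays against 2), so a negative value is lower in emigrants. The medians of the 4 arrays lay between 4.82 and 4.91. The files hold no detection call, so it is said where both arrays of a source lay below the array medians. A gene is called non-overlapping where both arrays of one source lay beyond both arrays of the other. Every array had large differences between the 3 prime and 5 prime probe sets of actin, at 4.68 and 3.79 in the emigrants and 4.31 and 3.06 in the thymocytes. Spearman's rho across probe sets was 0.950 between the emigrant arrays and 0.964 between the thymocyte arrays, while emigrants 1 and thymocytes 2 reached 0.9765 (probe sets are not independent replicates). On the first principal component, with 41.29% of the variance, the thymocyte arrays lay at 32.33 and 5.33 and the emigrant arrays at -18.83 and -34.66. Emigrants 2 stood apart on the second component, at -33.98.

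Under TCDD both emigrant arrays lay below both thymocyte arrays for 6 of 10 genes of the pre-T cell receptor and V(D)J recombination, Ptcra and Rag1 among them, and for 6 of 15 Notch receptors and targets. The same held for 20 of 36 DNA replication genes and 19 of 38 mitosis genes. Both emigrant arrays lay above both thymocyte arrays for 15 of 23 immediate early genes and for 10 of 20 leukocyte adhesion genes. They did so for 5 of 11 Krueppel-like factors too, of which Klf6 and Klf4 were also counted among the immediate early genes. Over all 12394 genes, 22.1% lay above in this way and 15.5% below. No single difference passed the test over all probe sets (0 of 20393, or 0.0%, at a limma adjusted p under 0.05), and the smallest adjusted p was 0.0871, for Mpzl2. At an unadjusted p under 0.05 there were 1538 probe sets, 680 higher and 858 lower in emigrants. The number that passed was 10 without emigrants TCDD 1, 1 without emigrants oil 1, 1 without emigrants oil 2, and 15 when the treatment field of emigrants oil 1, which names TCDD, was followed in place of its title.

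By gene, with each gene represented by its brightest probe set, 490 of 12394 were higher at an unadjusted limma p under 0.05 (3.95%) and 561 lower (4.53%). Both emigrant arrays lay above both thymocyte arrays for 2735 genes (22.1%) and below both for 1927 genes (15.5%). With a difference of 1 log2 unit or more besides, 180 genes were higher (1.45%) and 344 lower (2.78%). The median difference over all genes was 0.04, and the median SE of a gene's difference was 0.214. The gene lists below are read against these shares. The lists were chosen with earlier results of these data known, so a larger share in a list is a description only.

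The corn oil arrays, which share no array with this comparison, gave the same comparison of sources without TCDD. There both emigrant arrays lay above both thymocyte arrays for 2448 genes (19.8%) and below both for 2428 genes (19.6%). Of the 180 genes higher by 1 log2 unit or more under TCDD, 143 were also higher without overlap under oil (79.4%), and of the 344 lower genes 233 were also lower (67.7%). Same-numbered oil and TCDD arrays of a source deviated together (r of 0.511 in emigrants and 0.734 in thymocytes), so the oil comparison is not an independent repeat. The difference between sources averaged over TCDD and oil, chosen after seeing the data, passed the limma test for 16 probe sets (0.0785%), 7 higher and 9 lower, from 15 genes. Among these genes were Klf6, Mpzl2, Cyp4v3, Xrcc6 and Rgcc, each at an adjusted p of 0.0168. That count was 0 without emigrants TCDD 2 and without any 1 of the 4 thymocyte arrays, 2 without emigrants oil 1, 39 without emigrants oil 2 and 70 without emigrants TCDD 1. Its p-values treat 4 arrays of a source as independent, which the shared deviation of same-numbered arrays goes against.

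The gene with the smallest p was Mpzl2, an immunoglobulin-like adhesion protein first described in the thymic epithelium. It lay at 2.99 and 3.19 in the emigrant arrays, below the array medians, and at 7.43 and 7.34 in the thymocyte arrays, a log2 difference of -4.30 (SE 0.293), against -2.06 under oil. On this probe set the sources were far apart and the arrays of each source close together. Dimmer probe sets of Mpzl2 (means 4.37 and 4.19) differed by -0.31 and -2.98. Next among the lower genes came Xrcc6, the Ku70 subunit that binds broken DNA ends, at 6.18 and 5.54 against 7.97 and 8.02 (4.41-fold lower, log2 difference -2.14, SE 0.218). Notch3, a Notch receptor, lay at 5.70 and 5.69 against 7.53 and 7.16 (log2 difference -1.64, SE 0.175), though its other probe set differed by -0.27 (mean 5.03). Rgcc, a regulator of the cell cycle, lay at 9.01 and 8.75 against 10.43 and 10.31 (2.81-fold lower), and Trmt10c, a subunit of the mitochondrial enzyme that trims tRNA ends, had a difference of -1.07 with both emigrant arrays below the array medians.

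Among the higher genes Klf6, a Krueppel-like transcription factor, had the smallest p. It lay at 8.19 and 7.80 in emigrants and at 5.76 and 5.95 in thymocytes (4.40-fold higher, log2 difference 2.14, SE 0.185, adjusted p = 0.186), with the same size under oil (2.13). A dimmer Klf6 probe set (mean 5.11) differed by 0.53. Cotl1, which encodes a coactosin-like protein that binds actin filaments, lay at 11.02 and 11.08 against 8.87 and 8.81 (4.64-fold higher), and its 4 other probe sets differed by 0.38 to 2.28. The others of the 5 higher genes with the smallest p were Cyp4v3, a fatty acid hydroxylase (log2 difference 1.40), Pfkp, a phosphofructokinase of glycolysis (1.51), and Yaf2, a partner of Polycomb proteins (1.29, or 0.14 for a dimmer probe set). Dimmer probe sets differed by 0.06 for Cyp4v3 (mean 3.34) and by 0.04 for Pfkp (mean 3.88). Ahnak, a very large scaffold protein of the cell cortex named here after its values were seen, lay at 11.12 and 10.62 against 8.53 and 9.08 (4.18-fold higher), and a dimmer probe set of it differed by 0.24.

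**Figure D1:**
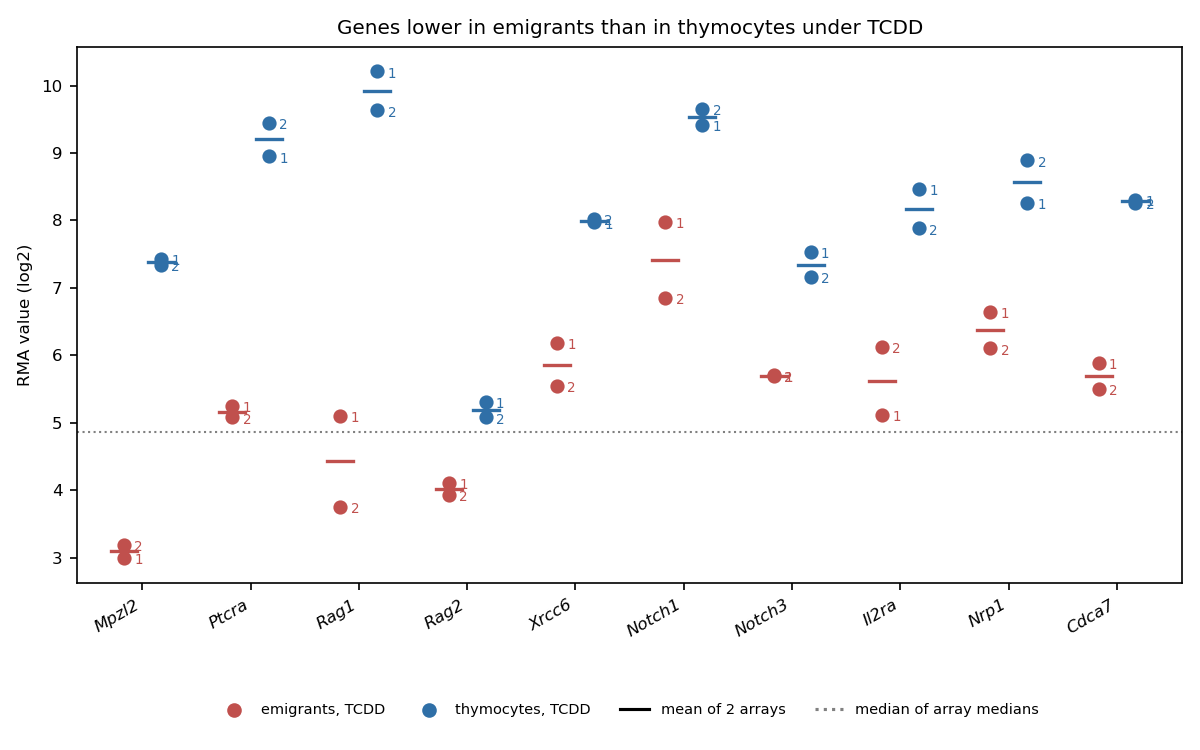
RMA values (log2, vertical axis) of 10 genes lower in emigrants on each of the 4 TCDD arrays, with emigrants in red, thymocytes in blue, array numbers beside the points, bars for the mean of 2 arrays and a dotted line for the median of the array medians. Every emigrant point lies below both thymocyte points of its gene, by 4.30 log2 units on average for Mpzl2 and 1.18 for Rag2.

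Of 10 measured genes of the pre-T cell receptor and V(D)J recombination, 6 were lower without overlap (60.0%), 5 of them by 1 log2 unit or more, and 0 were higher. The list's median difference was -0.93, against 0.04 for all genes. Ptcra, the pre-T alpha chain, lay at 5.25 and 5.08 in emigrants and at 8.95 and 9.45 in thymocytes (16.4-fold lower, log2 difference -4.03, SE 0.512, adjusted p = 0.237). Rag1, the catalytic subunit of the recombinase, lay at 5.10 and 3.75 against 10.21 and 9.63, with a log2 difference of -5.49 and an SE of 1.73. The corn oil emigrant arrays, which enter the spread behind that SE, lay at 3.89 and 9.81. Both emigrant TCDD arrays were thus near or below the array medians, far below both thymocyte arrays.

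Rag2, the partner of Rag1, lay at 4.11 and 3.93 against 5.31 and 5.08, again with both emigrant arrays below the array medians (log2 difference -1.18). Dntt, the terminal transferase that adds untemplated bases at the joins, behaved otherwise. It lay at 11.62 and 6.09 in emigrants and at 12.45 and 12.43 in thymocytes, so that only emigrants 2 was far below, and its difference of -3.59 became -0.82 without emigrants 2 and -6.35 without emigrants 1. The list's median was -0.57 without emigrants 2 and -1.26 without emigrants 1, and -0.95 and -1.14 without thymocytes 1 and 2.

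The promoters of Ptcra and Rag1 are shown because these were the list's largest differences and because the E proteins that drive early T cell genes bind E-box motifs. Each sequence is the 250 bases before the gene's start in RefSeq on GRCm38.p6, written 5′ to 3′ on the gene's strand, with capitals for the E-box letters CAGCTG, which read the same on both strands, and CACCTG, searched as CAGGTG too. Ptcra lies at chr17:46763713-46763962 and Rag1 at chr2:101649533-101649782, both on the minus strand.
Ptcra: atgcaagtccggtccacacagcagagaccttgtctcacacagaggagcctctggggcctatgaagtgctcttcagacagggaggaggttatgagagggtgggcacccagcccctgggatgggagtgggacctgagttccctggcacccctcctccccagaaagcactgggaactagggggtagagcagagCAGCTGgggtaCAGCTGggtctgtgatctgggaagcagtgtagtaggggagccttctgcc
Rag1: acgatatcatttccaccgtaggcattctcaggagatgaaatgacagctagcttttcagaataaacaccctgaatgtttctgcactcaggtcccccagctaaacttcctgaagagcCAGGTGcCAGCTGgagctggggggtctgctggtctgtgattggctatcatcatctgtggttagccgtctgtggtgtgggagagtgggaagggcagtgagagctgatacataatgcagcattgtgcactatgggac
The Ptcra window held CAGCTG 2 times and CACCTG 0 times. The Rag1 window held each of them 1 time, with CACCTG as CAGGTG and 1 base between the motifs. Over 32851 promoters of this length in the table, 13% held CAGCTG and 17.22% held CACCTG. A match is a description of the letters only.

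Notch signals start and sustain the T cell programme, and Il2ra, the interleukin-2 receptor alpha chain or CD25, is a Notch target and a marker of the middle CD4-CD8- stages. Of 15 measured Notch receptors and targets, 6 were lower without overlap (40.0%), 3 of them by 1 log2 unit or more, and 2 were higher. Their median was -0.21 under TCDD and 0.04 under oil. Under TCDD it was -0.46 without emigrants 1, -0.15 without emigrants 2, -0.14 without thymocytes 1 and -0.32 without thymocytes 2. With the mean of the probe sets of a gene it was -0.01. Notch1 lay at 7.98 and 6.85 in emigrants and at 9.42 and 9.65 in thymocytes (4.35-fold lower, log2 difference -2.12, SE 0.406), while a dimmer probe set of it (mean 5.47) differed by -0.19. Il2ra lay at 5.11 and 6.12 against 8.47 and 7.88 (5.88-fold lower, log2 difference -2.56, SE 0.57), while a dimmer probe set of it (mean 4.27) differed by -0.39. The target Hes1 had a difference of -0.79 and Rbpj, the DNA-binding partner of Notch, one of -0.57 (0.04 for another Rbpj probe set). The receptors that mark the early thymic stages were thus lower in both emigrant arrays, as they were under oil (-1.90 for Notch1 and -2.22 for Il2ra).

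Of the 7 measured E proteins and Id inhibitors, the 3 E proteins Tcf3, Tcf4 and Tcf12 were lower without overlap (42.9%) and 1 inhibitor, Id4, was higher, at 0.33 with all 4 arrays below their medians. Tcf12 lay at 8.87 and 6.52 against 9.72 and 9.43, a difference of -1.88, with another probe set at -0.10, and Tcf3 at 5.25 and 5.43 against 6.18 and 5.47, a difference of -0.49. Tcf4 lay at 7.42 and 5.76 against 7.53 and 7.49, a difference of -0.92. Without thymocytes 1 the difference of Tcf3 was -0.13. The list median of -0.49 was -0.40 without emigrants 1, -0.09 without emigrants 2, -0.24 without thymocytes 1 and -0.76 without thymocytes 2. Of 14 measured T lineage transcription factors, 5 were lower (35.7%) and 4 higher (28.6%). Myb, a factor of dividing progenitors, lay at 10.59 and 5.31 against 11.61 and 10.85. Gfi1 and Bcl11b, factors of early T cell development, had differences of -1.32 and -0.65, and Spib, which pre-T thymocytes share with B cells, one of -1.32. For Myb, Gfi1, Tcf12 and Tcf4 it was emigrants 2 that lay far below. Without that array their differences were -0.64, -0.44, -0.71 and -0.09.

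Of 14 stem and early progenitor genes, 6 were higher without overlap (42.9%), 2 of them by 1 log2 unit or more, and 2 were lower. Under TCDD and oil alike, 2 were higher and 2 lower without overlap. The list median was 0.23 (0.12 without emigrants 1 and 0.15 without thymocytes 1). Kit, the stem cell factor receptor, lay at 7.51 and 8.64 in emigrants and at 6.77 and 6.83 in thymocytes (2.42-fold higher, log2 difference 0.14 for a dimmer probe set). Its log2 difference of 1.27 was 0.71 without emigrants 2. Mef2c, a factor of lymphoid and myeloid progenitors, had a difference of -1.12, set mainly by thymocytes 2 (5.46 and 6.92 in the thymocytes). Cd34 was the other lower gene, at -0.33 with all 4 arrays below their medians, and at -0.98 under oil.

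The sorted fraction was defined by the absence of CD4 and CD8. Cd4 lay at 5.06 and 5.31 in emigrants and at 4.75 and 4.94 in thymocytes, close to the array medians in all 4. Cd8a lay at 6.18 and 6.24 against 5.05 and 7.14, so the sources overlapped. Ptprc, the pan-leukocyte marker CD45, lay between 11.39 and 11.93 in all 4 arrays. Of 9 measured genes of the coreceptors and the CD4+CD8+ stage, 3 were lower without overlap (33.3%), each by 1 log2 unit or more, and 2 were higher. Ccr9, a receptor for the thymic and gut chemokine CCL25, was among the higher, at 9.53 and 9.46 against 8.73 and 9.17 (difference 0.54).

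The lower genes of that list were Cd24a, Sox4 and Arpp21. Cd24a, a surface glycoprotein lost as thymocytes mature, lay at 10.61 and 5.72 against 10.98 and 10.79. Sox4, a transcription factor, lay at 8.29 and 4.60 against 9.19 and 9.28, with a difference of 0.09 for another probe set. Both were far lower on emigrants 2, and without it their differences were -0.28 and -0.95. Arpp21, a thymocyte-enriched phosphoprotein, was low in both emigrant arrays, at 6.02 and 4.57 against 8.81 and 7.12 (6.35-fold lower), although its dimmest probe set (mean 4.91) differed by 0.12. The list median was -0.92, -0.20 without emigrants 2, -1.73 without emigrants 1, and -1.39 and -0.45 without thymocytes 1 and 2.

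**Figure D2:**
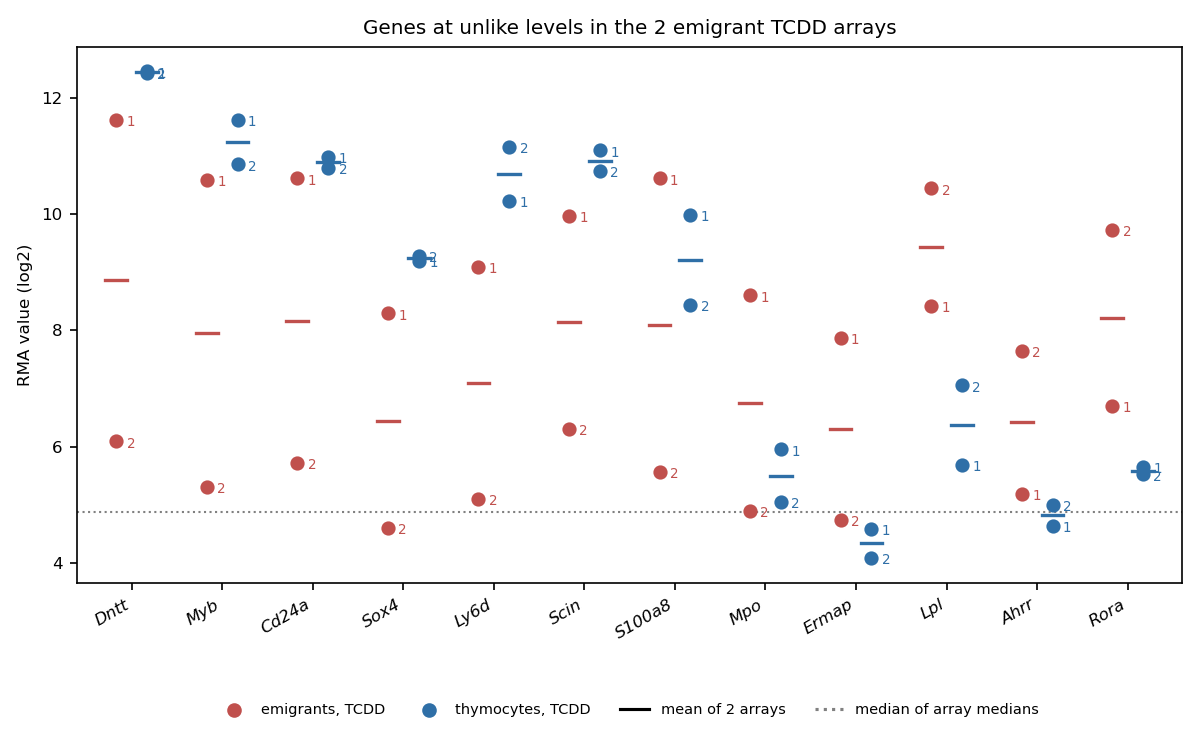
RMA values (log2, vertical axis) on each TCDD array of 12 genes whose 2 emigrant arrays lay far apart, with the same symbols as in the plot of lower genes. Dntt, Myb, Cd24a, Sox4, Ly6d, Scin, S100a8, Mpo and Ermap were lower in emigrants 2 than in emigrants 1, while Lpl, Ahrr and Rora were highest in emigrants 2.

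The CD3 complex and proximal T cell receptor signalling genes had no common direction. Of 17 measured, 8 were higher without overlap (47.1%) and 4 lower (23.5%), with a list median of -0.18. Cd3e, a CD3 chain, lay at 8.66 and 8.91 against 8.34 and 8.09 (difference 0.57) while Cd3g, another chain of the same complex, lay at 9.07 and 8.50 against 9.40 and 9.55 (difference -0.69). The adaptors also parted, with Lat at -0.91, Sh2d1a at -1.49 with both emigrant arrays below the array medians, and Grap2 at 0.70. The median was 0.08 without emigrants 2, 0.09 without thymocytes 1 and 0.15 without thymocytes 2, so its sign rests on single arrays.

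Genes of dividing cells were lower in emigrants across several lists. Of 36 measured DNA replication genes, 20 were lower without overlap (55.6%), 9 of them by 1 log2 unit or more, and 0 were higher, and the list median was -0.70 (-0.91 under oil). Rfc4, a subunit of the clamp loader, lay at 5.46 and 4.55 against 7.25 and 6.89 (4.21-fold lower), and Rfc3 of the same complex had a difference of -1.07 with both emigrant arrays below the array medians. Slbp, the histone mRNA binding protein, and Prim2, a primase subunit, had differences of -1.07 and -1.43, with -0.30 for another Prim2 probe set. Of 38 mitosis genes, 19 were lower (50.0%) and 0 higher, with a median of -0.57. Ccnb2, a mitotic cyclin, lay at 6.21 and 5.54 against 7.84 and 7.04, and the mitotic kinase Aurkb at 6.31 and 5.85 against 7.34 and 7.27. Mad2l1, of the spindle checkpoint, had a difference of -1.17.

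The replication median was -0.41 without thymocytes 1 and the mitosis median -0.25, against -0.73 and -0.87 without thymocytes 2. Of 19 genes of G1 control only 4 were lower and 2 higher, with a median of 0.03, but Cdk4, the kinase of the G1 phase, lay at 7.45 and 7.78 against 9.09 and 9.27 (2.96-fold lower). Cdca7, a chromatin factor named after its values were seen, lay at 5.89 and 5.50 against 8.30 and 8.26 (5.98-fold lower).

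Ribosome and mitochondrial genes were read next. Of 34 nucleolar ribosome biogenesis genes, 18 were lower without overlap (52.9%) and 0 higher (median -0.49, or -0.31 without thymocytes 1). Fbl, the methyltransferase fibrillarin, lay at 7.77 and 7.68 against 9.50 and 9.86 (3.89-fold lower), Gnl3, or nucleostemin, had a difference of -1.54, Npm1, or nucleophosmin, one of -0.91, and Ebna1bp2, a processing factor, one of -1.22 (-0.21 for another probe set). Cytosolic ribosomal proteins had the same counts, 18 of 34 lower and 0 higher (median -0.37), with smaller differences: -1.17 for Rpl11, -0.91 for Rpl4 and -0.87 for Rps6. Of 44 oxidative phosphorylation subunits, 19 were lower (43.2%) and 2 higher (median -0.24, or -0.37 without thymocytes 1 and -0.14 without thymocytes 2). Atp5b, of the ATP synthase, lay at 8.12 and 8.82 against 10.11 and 9.95, and Cyc1 and Ndufv2, of the electron transport chain, had differences of -1.12 and -1.07. Glycolysis did not share this direction under TCDD: 8 of 18 genes were higher (44.4%), Pfkp among them. The 3 lower genes included Gapdh (-1.02) and Ldhb (-0.96). The glycolysis median was 0.21 under TCDD but -0.13 under oil, where 3 genes were higher and 7 lower. Gapdh is also used as a quality control on the array, and its 3 prime minus 5 prime signal was 4.97 and 5.32 in emigrants and 5.90 and 4.78 in thymocytes.

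The Krueppel-like factors are transcription factors, several of which are linked to resting lymphocytes. Of 11 measured, 5 were higher without overlap (45.5%), 4 of them by 1 log2 unit or more, and 0 were lower. Beside Klf6, Klf7 lay at 7.48 and 7.34 in emigrants and at 5.44 and 6.15 in thymocytes (3.06-fold higher, 0.26 for another probe set), Klf4 at 6.17 and 7.07 against 4.68 and 5.55, and Klf9 at 8.54 and 8.65 against 6.33 and 7.90. The fifth was Klf1, the factor of red cell precursors, at a difference of 0.52. Klf1 was also counted among the erythroid genes, and Klf6 and Klf4 among the immediate early genes. Klf2, the factor tied to thymic exit, lay at 7.10 and 5.39 against 5.45 and 5.87, so that only emigrants 1 was high. Its difference of 0.59 turned to -0.27 without emigrants 1. The list median was 0.52, 0.29 without emigrants 1, 1.06 without emigrants 2 and 0.80 without thymocytes 2.

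Of 16 sphingosine receptors and egress regulators, 9 were higher without overlap (56.25%) and 0 lower, but none by 1 log2 unit (median 0.47, or 0.25 without emigrants 1). S1pr1, the receptor that guides exit, lay at 6.68 and 6.22 against 5.68 and 6.11, a difference of 0.55, with the nearest arrays of the sources only slightly apart. S1pr4 had a difference of 0.82. Of 12 homing chemokine receptors, 6 were higher (50.0%) and 1 lower (median 0.12, or 0.30 without emigrants 1 and 0.31 without thymocytes 2). Ccr2, the receptor for CCL2, lay at 6.26 and 6.94 against 4.70 and 5.30 (3.03-fold higher). Cxcr3 had a difference of 0.89 and Ccr7, the receptor for lymph node homing, one of 0.40 with all 4 arrays below their medians. Cxcr4, the receptor that holds early thymocytes in place, was the lower one (-0.61), with all 4 arrays below their medians.

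Of 20 integrins and adhesion molecules, 10 were higher (50.0%) and 1, Mpzl2, lower (median 0.17). Icam1 lay at 7.50 and 7.59 in emigrants and at 6.48 and 6.63 in thymocytes (log2 difference 0.99, SE 0.149). Itgb7, the beta chain of gut-homing integrins, lay at 8.33 and 8.54 against 7.05 and 7.41 (2.30-fold higher), and Itgb2, the beta chain of LFA-1, at 9.15 and 8.53 against 7.51 and 7.97 (2.14-fold higher). Cd44, the hyaluronan receptor that marks the first thymic stages and activated T cells, lay at 9.41 and 9.35 against 7.21 and 8.37 (3.01-fold higher, log2 difference 0.25 for a dimmer probe set). Itgae, the integrin chain CD103, overlapped (7.47 and 7.69 against 7.43 and 8.58). Under TCDD its difference was -0.43 and under oil 1.56.

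**Figure D3:**
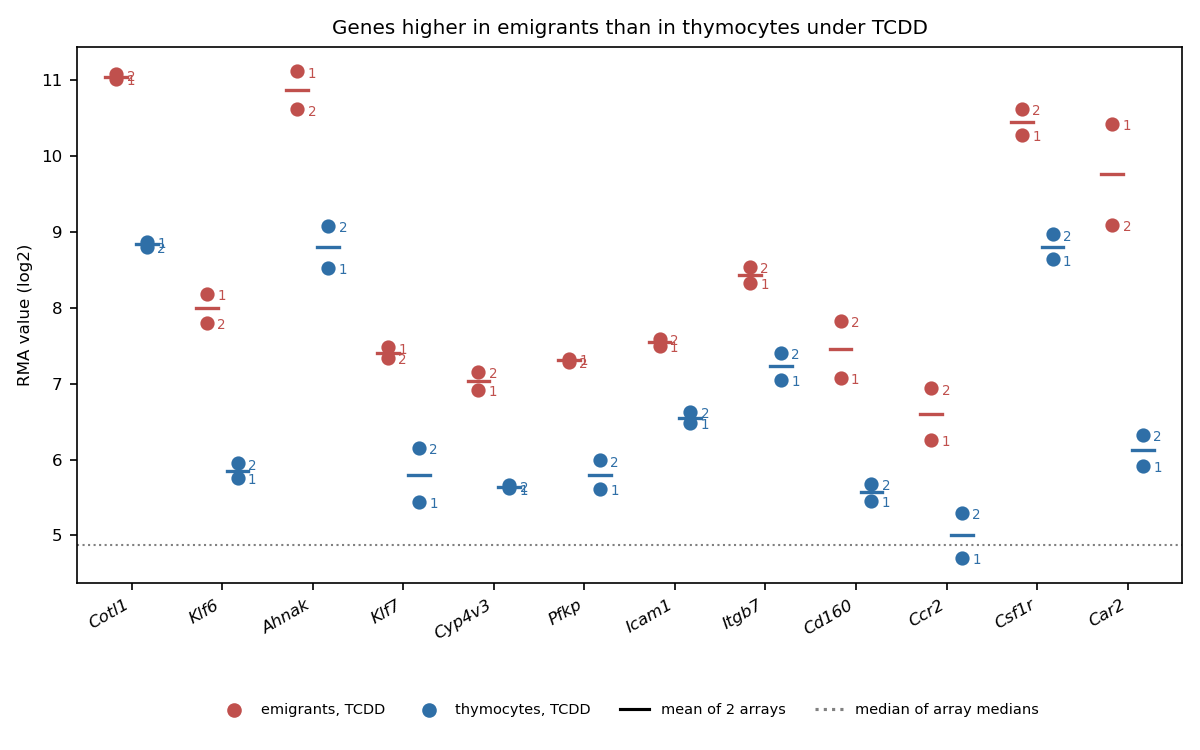
RMA values (log2, vertical axis) of 12 genes higher in emigrants on each of the 4 TCDD arrays, with the same symbols as in the plot of lower genes. Every emigrant point lies above both thymocyte points of its gene, by 2.21 log2 units on average for Cotl1, 0.99 for Icam1 and 3.64 for Car2.

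Among cytokine receptors of the common gamma chain and their signalling genes, 6 of 18 were higher (33.3%) and 3 lower (16.7%). Il7r, the interleukin-7 receptor chain that sustains lymphocytes, lay at 9.67 and 11.13 against 9.41 and 9.05 (2.25-fold higher), and Crlf2, a receptor for the cytokine TSLP, at 7.58 and 7.63 against 6.25 and 7.05. Of the 14 BCL2 family genes 5 were higher (35.7%) and 0 lower. They held both the survival factor Bcl2 and the killer Bcl2l11, or BIM. Bcl2 lay at 6.23 and 7.31 against 5.78 and 6.11, and its difference of 0.83 was 0.29 without emigrants 2. Bcl2l11 lay at 10.62 and 10.08 against 7.76 and 9.14 (3.73-fold higher, 0.56 for another probe set). Of the 5 measured GIMAP GTPases, proteins needed for lymphocyte survival, 4 were higher (80.0%), Gimap4 by 1.30 and Gimap3 by 0.77, and the list median was 0.77, with 0.44 without emigrants 1, 1.32 without emigrants 2, 0.50 without thymocytes 1 and 1.37 without thymocytes 2. The receptors for TGF-beta parted, with Tgfbr1 at 7.24 and 7.30 against 9.60 and 8.57 (3.51-fold lower) and Tgfbr2 at 8.58 and 8.80 against 8.08 and 8.13 (difference 0.59). Dimmer probe sets differed by -0.13 and 0.02 for Tgfbr1 and by 0.04 for Tgfbr2. Nrp1, a semaphorin co-receptor, lay at 6.64 and 6.10 against 8.26 and 8.89 (4.60-fold lower).

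Of 17 T-box factors and cytotoxic granule genes, 6 were higher (35.3%) and 0 lower. Their median was 0.48, but 0.26 without emigrants 1, 0.17 without thymocytes 1 and 0.72 without thymocytes 2. Tbx21, the T-box factor T-bet, lay at 6.46 and 5.81 against 4.57 and 5.09 (2.47-fold higher), and the chemokine Ccl5 at 11.56 and 10.30 against 8.59 and 9.55 (3.64-fold higher). 2 granule genes picked after their values were seen overlapped between the sources. Gzma, a granzyme, lay at 11.53 and 7.96 against 11.42 and 12.29, and Nkg7, a granule membrane protein, at 10.80 and 9.44 against 8.60 and 10.16. Of 14 NK receptors and adaptors, 6 were higher (42.9%) and 1 lower. The higher genes included Fcer1g and Tyrobp, adaptors that NK cells share with myeloid cells, at differences of 2.11 and 0.91, and the receptor Cd244a at 1.36. Cd160, a receptor of innate-like T cells and NK cells, lay at 7.08 and 7.83 against 5.46 and 5.68 (3.70-fold higher). Ltb, the cytokine lymphotoxin beta, and Rora, a nuclear receptor of innate lymphocytes, were picked after their values were seen. Ltb lay at 7.55 and 8.38 against 4.91 and 6.53 and Rora at 6.70 and 9.72 against 5.65 and 5.52, with 0.39 for another Rora probe set.

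Immediate early genes, which cells switch on within minutes of a stimulus or of handling, had a list median of 0.88 (0.53 under oil). Of 23 measured, 15 were higher without overlap (65.2%), 7 by 1 log2 unit or more, and 2 were lower. Klf6 and Klf4, already counted with the Krueppel-like factors, were among those 7. Fos, of the AP-1 complex, lay at 9.66 and 10.77 against 6.90 and 8.87 (5.05-fold higher), Egr1 at 10.00 and 10.40 against 8.35 and 9.15 (2.73-fold higher), and Ier2 had a difference of 0.94. Thymocytes 1 was the lower of the thymocyte arrays for Fos and Egr1. Myc, also an immediate early gene, was one of the 2 lower (5.68 and 4.86 against 5.88 and 6.00). The list median was 0.50 without thymocytes 1 and 1.13 without thymocytes 2. Of 25 interferon response genes, 6 were higher (24.0%) and 1 lower, with a median of -0.06 that was 0.03 without emigrants 2 and 0.18 without thymocytes 2. Stat2 and Gbp2 had a difference of 0.65 each, with both thymocyte arrays below the array medians for Stat2.

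**Figure D4:**
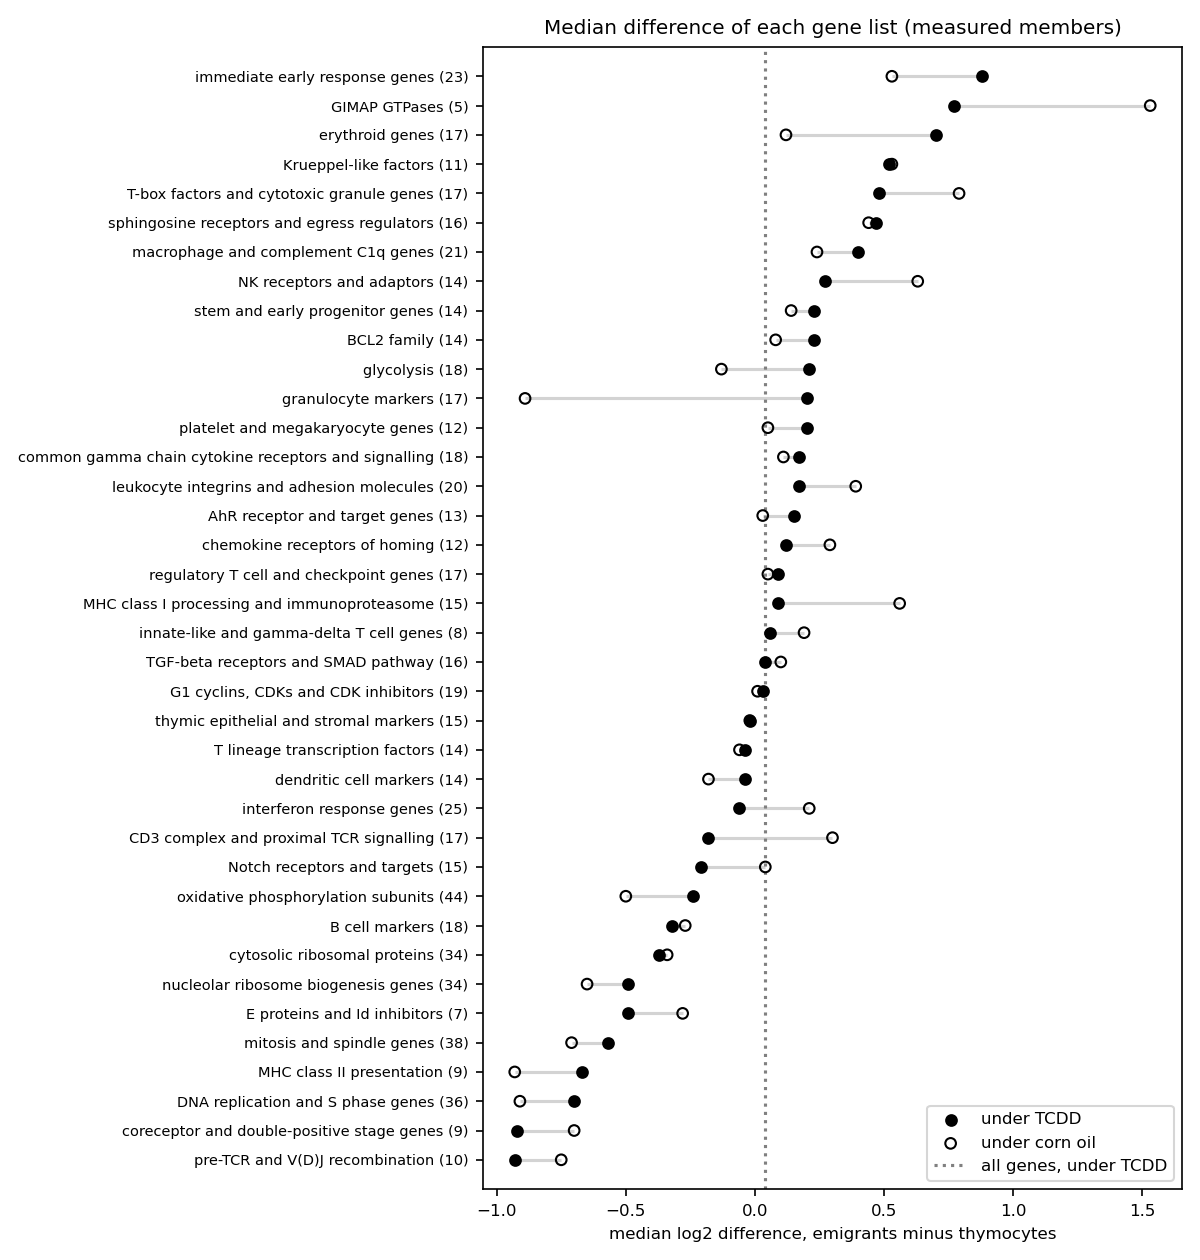
Median log2 difference, emigrants minus thymocytes, of each of the 38 gene lists under TCDD (filled) and under corn oil (open), with the number of measured members in brackets and a dotted line at the median of all genes under TCDD, 0.04. The lists run from -0.93 for pre-TCR and V(D)J recombination to 0.88 for immediate early genes, and granulocyte markers lay at 0.20 under TCDD and at -0.89 under oil.

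Markers of other cell types were read on the same arrays, since a CD4-CD8- gate alone can hold cells other than T cells and, in these bulk samples, fewer cells of a type and less RNA per cell cannot be told apart. Of 21 macrophage and C1q genes, 7 were higher in emigrants (33.3%), 5 of them by 1 log2 unit or more, and 2 were lower. The list's mean level was 6.01 and 6.57 in emigrants and 5.43 and 5.83 in thymocytes. Csf1r, the receptor for macrophage growth factor, lay at 10.28 and 10.63 against 8.64 and 8.97 (3.14-fold higher, SE 0.244 on the log2 scale). Slc40a1, the iron exporter, had a difference of 2.26 (0.37 for another probe set), Fcgr3, an Fc receptor, one of 2.00, and C1qb, of complement, one of 1.72. The list median was 0.40, with 0.80 without emigrants 1, 0.15 without emigrants 2 and 0.64 without thymocytes 2. These levels moved with the higher genes named above, Fcer1g and Tyrobp among them, and their part in those differences was not tested.

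Erythroid genes were higher in 6 of 17 cases (35.3%), with Klf1 of the Krueppel-like list among them, and lower in 0. The list's mean was 6.94 in emigrants 1 and 5.52 in emigrants 2, against 5.45 and 5.22 in the thymocytes. Car2, a carbonic anhydrase that other cells carry too, was high in both emigrant arrays, at 10.43 and 9.10 against 5.92 and 6.33 (12.5-fold higher, log2 difference 3.64, SE 0.667). Its relative Car1, picked after its values were seen, lay at 8.61 and 4.64 against 4.07 and 4.42, Ermap, a red cell membrane protein, at 7.87 and 4.74 against 4.59 and 4.08, and Rhd, of the Rhesus complex, at 7.87 and 5.49 against 5.04 and 5.11. For Car1 and Ermap both thymocyte arrays lay below the array medians. The globin gene Hba-a1 lay between 4.53 and 4.71, below the array medians on all 4 arrays. The list median was 0.70, 0.06 without emigrants 1, 1.23 without emigrants 2 and 0.39 without thymocytes 2.

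Granulocyte markers split in the same way. Their mean was 7.83 in emigrants 1 and 5.58 in emigrants 2, against 6.99 and 6.09 in the thymocytes, and 2 of 17 were higher without overlap (11.8%) and 0 lower. S100a8, an abundant neutrophil protein, lay at 10.61 and 5.56 against 9.98 and 8.43. Mpo, a granule enzyme of immature granulocytes, lay at 8.60 and 4.89 against 5.95 and 5.05, and Ctsg, another, at 7.87 and 4.84 against 5.25 and 5.20. The list median of 0.20 was 1.41 without emigrants 2, -0.42 without emigrants 1, 0.57 without thymocytes 1 and -0.07 without thymocytes 2. The high Dntt, Myb and Cd24a of emigrants 1 thus stood on the same array as the high granulocyte and erythroid markers, and both were lower on emigrants 2. On emigrants oil 2, Dntt lay at 10.68 and Myb and Cd24a at 9.96 each. The granulocyte and erythroid means there were 5.78 and 5.29. On emigrants oil 1, Dntt lay at 9.82, Myb at 10.0 and Cd24a at 9.26, with means of 6.14 and 6.24. The part of granulocytes and erythroid cells in the Dntt, Myb and Cd24a values was not tested.

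B cell and MHC class II genes were lower in the cells from the spleen. Of 18 B cell markers, 8 were lower without overlap (44.4%) and 1 higher, and the list's mean was 4.98 and 4.97 in emigrants against 5.38 and 5.81 in thymocytes. Ms4a1, or CD20, lay at 5.33 and 4.57 against 6.96 and 8.93 (7.96-fold lower) and Cd79b, of the B cell receptor, at 5.69 and 4.89 against 6.82 and 7.55 (3.71-fold lower). Jchain, the joining chain of secreted antibodies, picked after its values were seen, lay at 9.09 and 4.88 against 9.35 and 10.09. Of 9 MHC class II genes, 6 were lower (66.7%), 4 of them by 1 log2 unit or more, and 0 higher (median -0.67). H2-Eb1 lay at 7.68 and 7.49 against 9.39 and 10.53 (5.19-fold lower), H2-Ab1 and H2-Aa, other class II chains, had differences of -1.88 and -1.60, and the invariant chain Cd74 one of -0.67. Ly6d, found on B cell precursors and some thymocytes, lay at 9.09 and 5.10 against 10.22 and 11.15. The lower Spib stood with these B cell markers as well as with the T lineage factors, and the part of B cells in its difference was not tested.

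Of 15 thymic epithelial and stromal markers, 2 were lower and 2 higher, each 13.3%, with a median of -0.02. Epcam, an epithelial adhesion molecule also seen on some thymocytes, lay at 5.05 and 5.09 against 6.66 and 7.24 (3.68-fold lower). Under oil its sources overlapped. Cldn3 of the same list was higher, at 6.09 and 6.73 against 5.86 and 5.93 (difference 0.52). Adamdec1, a metalloprotease, and Khdc1a were named after their values were seen, as was Fkbp5. Adamdec1 lay at 5.32 and 4.36 against 9.0 and 7.29 (9.90-fold lower) and Khdc1a at 3.64 and 4.25, below the array medians, against 6.81 and 5.98. Of 8 genes of innate-like and gamma-delta T cells, 2 were higher without overlap and 1 lower, and of 14 dendritic cell markers 4 were higher and 3 lower. Platelet genes gave 5 of 12 higher and 0 lower, and MHC class I and immunoproteasome genes 0 of 15 higher and 2 lower. Of 17 regulatory T cell and checkpoint genes 3 were higher and 3 lower, and of 16 genes of the TGF-beta pathway 2 were higher and 1 lower. Fkbp5, a glucocorticoid-induced chaperone, lay at 7.98 and 8.09 against 10.17 and 9.73, though its other probe set (mean 5.69) differed by 0.41.

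**Figure D5:**
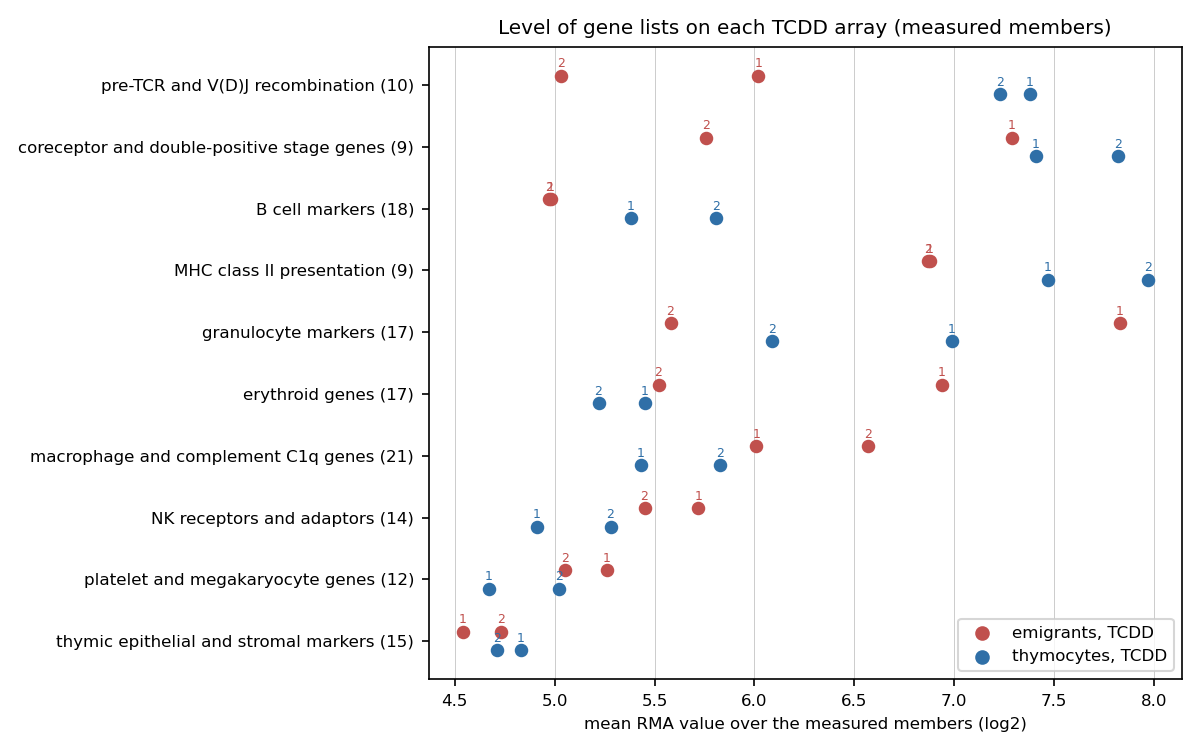
Mean RMA value (log2, horizontal axis) over the measured members of 10 gene lists on each TCDD array, with emigrants in red, thymocytes in blue and array numbers above the points. The granulocyte and erythroid lists were highest in emigrants 1 (7.83 and 6.94), the macrophage list was highest in emigrants 2 (6.57), and the B cell and class II lists were highest in the thymocytes.

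The genes of AhR itself did not share a direction under TCDD. Of 13 measured, 5 were higher without overlap in emigrants (38.5%), 2 of them by 1 log2 unit or more, and 2 lower (15.4%). Their median was 0.15, but 0.40 without thymocytes 1, 0.09 without thymocytes 2 and -0.24 with only the brighter probe sets. The 2 lower genes were Cyp1b1 and Scin, which carried high levels in the thymocytes. Cyp1b1, a cytochrome P450 induced through AhR, lay at 6.87 and 8.36 in emigrants and at 8.46 and 9.59 in thymocytes (2.66-fold lower), with a difference of 0.22 for another probe set. Scin, the actin-severing protein scinderin, lay at 9.97 and 6.30 against 11.09 and 10.74, a difference of -2.77 that was -0.94 without emigrants 2 and -4.61 without emigrants 1. Scin differed by as much under oil (-2.75), while Cyp1b1 differed by 0.64 under oil, where its sources overlapped.

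The higher genes included Ahrr, the AhR repressor, at 5.19 and 7.65 against 4.63 and 5.00, and Cyp1a1, the classical AhR-induced P450, at 4.22 and 5.59 against 3.78 and 4.07. For both, emigrants 2 was the only array well above its median. For Cyp1a1, emigrants 1 and both thymocyte arrays lay below the array medians. Xdh, or xanthine dehydrogenase, lay at 5.55 and 4.92 against 3.63 and 4.20, with both thymocyte arrays below the array medians. Tiparp, an ADP-ribosyltransferase that limits AhR, overlapped on its brightest probe set, at 7.74 and 9.09 against 6.68 and 7.83, while its 2 other probe sets were higher without overlap, by 2.28 and 0.93. Nqo1, a quinone reductase, and Cyp1a2 were also counted as higher, by only 0.15 and 0.08. Nqo1 lay between 5.02 and 5.23 in all 4 arrays, and for Cyp1a2 all 4 arrays lay below their medians. Ahr lay at 8.04 and 8.53 against 9.24 and 8.34. The ratio of sources therefore differed from gene to gene within the AhR list, and no member passed the limma test over all probe sets.

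The Scin promoter is shown because Scin was one of the 2 AhR genes lower in emigrants. The sequence is the 250 bases before its start in RefSeq on GRCm38.p6, chr12:40134229-40134478 on the minus strand, with capitals for the core letters of the AhR motif, GCGTG, searched on both strands.
Scin: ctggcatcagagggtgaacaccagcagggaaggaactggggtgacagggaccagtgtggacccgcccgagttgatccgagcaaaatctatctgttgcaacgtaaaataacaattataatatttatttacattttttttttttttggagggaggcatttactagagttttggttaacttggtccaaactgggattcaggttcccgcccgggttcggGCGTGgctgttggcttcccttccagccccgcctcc
The window held the core 1 time, and 28.16% of the 32851 promoters held it at least 1 time.

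The difference between sources was compared between TCDD and oil with an interaction contrast. It passed for 0 of 20393 probe sets (0.0%, smallest limma adjusted p = 0.9998), with 258 at an unadjusted p under 0.05. Mpzl2 differed by -4.30 under TCDD and by -2.06 under oil, where the thymocytes lay at 5.22 and 5.46. There were 197 genes (1.59%) without overlap in opposite directions in the 2 treatments, 27 of them with treatments apart by 1 log2 unit or more. Ptbp2, a splicing regulator named after its values were seen, lay at 5.20 and 5.31 against 6.61 and 6.69 under TCDD, and at 6.08 and 6.43 against 6.12 and 5.78 under oil, where the sources overlapped (another probe set had a difference of 0.07 under TCDD). Gstm1, a glutathione transferase, and Lpl, the lipoprotein lipase, were also picked after their values were seen. Gstm1 lay at 6.59 and 7.17 against 5.90 and 5.84 under TCDD, and its difference of 1.01 stood against -0.04 under oil. Lpl lay at 8.42 and 10.44 against 5.69 and 7.05 under TCDD, and the oil emigrants spanned its range, at 4.83 and 10.99.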

How the data were processed

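RNA of sorted CD4-CD8- cells was measured on 8 Affymetrix arrays, 2 in each of 4 groups taken from the sample titles. The deposited values are log2 signals that the authors made with RMA, per the submitters' processing notes, which corrects background, quantile normalizes and summarises probes. Their scale was kept. RMA makes array distributions alike, so a shift shared by most genes would not be seen, and it understates differences of dim genes. Of 22690 probe sets, 20393 with 1 symbol were used, 691 had several symbols and 1606 none. Symbols of 20364 were updated through their gene ID. limma 3.58.1 in R 4.3.3 fitted group means over all 8 arrays, and p-values were adjusted by Benjamini-Hochberg over 20393 probe sets with a threshold of 0.05. The step was tested on simulated data. A gene was represented by its brightest probe set over the 8 arrays. Further probe sets whose mean lay below the array medians are mostly not given. Several of these differed by far less or in the other direction. No depth exists for arrays, and 2 arrays a group limit the precision.

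Members and lists were chosen with earlier results of these data known. The 38 lists held 757 genes, each counted once, 660 of them measured. Some genes stood in several lists. Genes were named by a rule: the 5 non-overlapping genes with the smallest p in each direction (the rule's first choice, up to 15 passing genes a direction, was empty), up to 5 members of each list with the smallest p, all AhR genes, and a set of stage and lineage markers. Other genes are said to be picked after their values were seen. The alternatives were a repeated quantile normalization, median centring, brighter probe sets only, 1 value a gene, another prior, replicate blocks, 4 arrays only, emigrants oil 1 counted as TCDD, and leaving out each array. Tables and figures were made with Python 3.11.15, pandas 2.3.3, numpy 2.4.6 and matplotlib 3.10.9.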

Additional observations from a re-analysis of the deposited data

Results flagged for a closer look

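4 of the genes whose arrays did not overlap in opposite directions under TCDD and oil are given here, and the limma test of the difference between treatments passed for none of them (smallest adjusted p over all probe sets 0.9998). Elane, the neutrophil elastase gene, was higher in emigrants under TCDD, at 6.89 and 6.78 against 6.31 and 6.26, and lower under oil, at 6.17 and 6.27 against 6.76 and 6.43, so the log2 differences were 0.93 apart. The other 3 were picked after their values were seen. Vbp1, a subunit of the chaperone prefoldin, lay at 8.61 and 8.65 against 10.01 and 9.60 under TCDD and at 9.50 and 9.46 against 9.38 and 9.38 under oil, a TCDD minus oil difference of -1.28. Ugcg, the glucosylceramide synthase, lay at 5.91 and 6.44 against 7.51 and 6.99 under TCDD and at 7.23 and 8.36 against 6.92 and 6.87 under oil, a TCDD minus oil difference of -1.98, though its 2 other probe sets differed by 0.48 and 0.13 under TCDD. Agfg1, which has an Arf GTPase-activating domain, lay at 8.43 and 8.20 against 8.75 and 8.77 under TCDD and at 9.02 and 8.29 against 7.42 and 7.46 under oil, a TCDD minus oil difference of -1.67, with 4 other probe sets between -1.26 and 0.12 under TCDD.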

How the results depend on the processing

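For emigrants against thymocytes under TCDD, 0 probe sets passed the limma test, 1538 had an unadjusted p under 0.05, and the count was 1 with a trend and robust prior, 15 with emigrants oil 1 counted as TCDD, and 0 to 10 when each array was left out. For the difference between treatments it was 0, and 1 with emigrants oil 1 counted as TCDD. For the difference averaged over TCDD and oil the 16 became 29 after a repeated quantile normalization, 117 with only the brighter probe sets, 69 with the mean of the probe sets of a gene, 6 with the trend and robust prior, 82 with emigrants oil 1 counted as TCDD, and 0 to 70 when each array was left out. The cause of these changes was not tested. A replicate block, with the array number of the titles as a term, gave 0 under TCDD and 221 for the average, and a replicate block within each source gave 400 and 2741. The labels do not say that a number marks shared animals. In their deviations from the group means, same-numbered emigrant and thymocyte arrays correlated at -0.15 under TCDD and 0.116 under oil. With 2 arrays a group these values cannot decide whether the numbers pair the sources. The block within each source also takes the spread between arrays 1 and 2 of a source out of the error. Of 142 genes named, 9 changed sign in at least 1 of 18 alternatives. Another prior, the replicate blocks, the fit of 4 arrays and leaving out an oil array keep a gene's log2 difference. So do the brighter or brightest probe sets, and none of these could change a sign. Cd8a lay at -0.12 with the mean of its probe sets and at -0.43 with emigrants oil 1 counted as TCDD, and Ptprc at 0.07 with that array so counted. Leaving out each array, Cd8a ranged from -0.93 to 1.16, Ptprc from -0.38 to 0.15, Klf2 from -0.27 to 1.44, Mpo from -0.61 to 3.10, Ctsg from -0.38 to 2.65, S100a8 from -3.65 to 1.41, Itgae from -1.0 to 0.15, Hba-a1 from -0.03 to 0.16 and Nkg7 from -0.04 to 1.52. No other named gene changed sign. Past the threshold in at least 1 alternative were 61 of the genes, 57 of them with the block within each source. Where an array was left out, its group's other array was assumed to vary like the other groups. Dim genes have small differences on this scale, and no file gives a signal over background.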
